A study of Mus musculus with 32 samples.

Results

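The genes described here are 46 genes of the G2 phase and of mitosis, given as a list of symbols and matched among the 24454 gene IDs of the deposited count table. No cut on a measured value set the list, but it was drawn up with earlier results of these data known. All 46 were found, and all 46 had enough counts to be tested in every comparison. They were followed across 32 laser-captured regions of mammary tissue and lung from mice, all female, of the genotype MMTV-PyMT; R26-CBW; K8-CreERT2. In this strain the polyoma middle T oncogene, driven by the mouse mammary tumour virus promoter, gives rise to tumours that pass through graded stages. Every group, the normal gland included, came from mice that carried the oncogene, the Confetti reporter and the tamoxifen-dependent recombinase driven by the keratin 8 promoter. All mice received 5 mg tamoxifen at 5 weeks of age, and tissue was taken once tumours had reached the size limit, at an age the labels do not state. Keratin 8 marks luminal epithelial cells, so the coloured patches that were cut out descend from cells that expressed it at the time of induction.

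There were 3 libraries of normal gland, 5 of hyperplasia, 8 of adenoma, 9 of carcinoma and 7 of metastasis in the lung. Normal 18 was taken in the tumour core, and normal 28 and 30 were gathered from several places, and patches of normal gland were pooled to reach enough material. Hyperplasia comprised 3 core regions, 1 border region and 1 region not surrounded by tumour, adenoma 3, 3 and 2 of these, and carcinoma 6 core and 3 border regions. Metastases lay at the border of the lung (4) or in its centre (3). The series states 3 animals and no label ties a region to an animal. Some regions of each larger group therefore share an animal, and p-values over regions are too small throughout.

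Cells enter mitosis when CDK1, bound to cyclin A or cyclin B, is switched on by the phosphatase CDC25. Polo-like and Aurora kinases, kinesin motors and microtubule proteins then build the spindle, centromere proteins attach chromosomes to it, and the anaphase-promoting complex, with its partners CDC20 and the ubiquitin-conjugating enzyme UBE2C, destroys cyclin B and lets the sister chromatids part. Most of these genes are transcribed only in G2 and M, so that in RNA of a whole region they report on cells that are dividing. In such bulk samples, fewer dividing cells and less RNA per dividing cell cannot be told apart.

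Promoters of this class are known for a cell cycle homology region (CHR), bound by MuvB complexes that contain B-MYB or FOXM1 in dividing cells, and for CCAAT boxes, bound by NF-Y. RefSeq windows (GRCm38.p6) from 250 bases before to 50 bases after the gene start were at hand for 40 of the 46 members. The CHR was searched as TTTGAA or TTCGAA and the CCAAT box as CCAAT, on both strands and with overlaps between motifs allowed. A CHR was found in 30 of the 40 windows (75.0%), against 19.1% of 15525 tested genes with a window. A CCAAT box was found in 31 of 40 (77.5%), against 42.7%. Both were present in 26 of 40 (65.0%), against 7.93%. These matches are a description of letters in a window and do not show that a factor is bound. Stretches of 150 bases are printed for 5 members on which the results below turn, because they show the range from many motifs to none. All bases lie before the RefSeq extent of the gene and before every GENCODE transcript of it, and capitals mark CHR and CCAAT matches.
Top2a (chr11:99024200-99024349, minus strand, 3 CHR and 4 CCAAT matches): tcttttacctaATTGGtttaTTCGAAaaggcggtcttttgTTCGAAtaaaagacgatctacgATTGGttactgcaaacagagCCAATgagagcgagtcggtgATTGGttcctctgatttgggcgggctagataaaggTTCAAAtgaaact
Mki67 (chr7:135716451-135716600, minus strand, 2 CHR and 3 CCAAT matches): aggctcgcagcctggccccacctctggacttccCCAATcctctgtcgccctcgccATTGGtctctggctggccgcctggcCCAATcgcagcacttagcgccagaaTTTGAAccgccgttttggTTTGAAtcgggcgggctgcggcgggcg
Cdk1 (chr10:69352939-69353088, minus strand, 1 CHR and 2 CCAAT matches): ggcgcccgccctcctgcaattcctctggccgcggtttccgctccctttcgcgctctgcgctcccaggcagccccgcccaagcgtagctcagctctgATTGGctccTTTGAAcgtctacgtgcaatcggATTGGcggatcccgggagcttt
Ube2c (chr2:164769748-164769897, plus strand, 3 CCAAT matches): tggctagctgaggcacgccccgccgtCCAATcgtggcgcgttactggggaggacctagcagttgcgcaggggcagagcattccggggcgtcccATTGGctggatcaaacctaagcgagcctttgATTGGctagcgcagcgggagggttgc
Birc5 (chr11:117849087-117849236, plus strand, no match): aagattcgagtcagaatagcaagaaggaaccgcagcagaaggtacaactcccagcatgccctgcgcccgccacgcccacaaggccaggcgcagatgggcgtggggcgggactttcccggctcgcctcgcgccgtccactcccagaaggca
Ube2c also has a CHR at -29 from its RefSeq start, past the end of the printed stretch. Birc5 has no match to either motif anywhere in its 300-base window, which says only that these letters are not there.

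Total counts per library ranged from 2688611 to 19585351, and 1 gene ID without a symbol took between 5.20 and 78.85% of them. Values are given as CPM, read counts relative to library size, adjusted by the trimmed mean of M values (TMM). Hyperplasia 22, adenoma 51 and metastasis 42 stood apart, with fewer than 11000 genes with a count. Hyperplasia 22 had a count for 23 of the 46 members and adenoma 51 for 30, whereas every other library had between 41 and 46. A 0 in those 2 libraries cannot be read as absence, and the split of members in each comparison with such a library is also given without the 3.

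Ube2c was the only member to pass the test in a comparison of stages with edgeR's quasi-likelihood test. UBE2C, encoded on chr2:164769929-164772902 (GRCm38.p6), is the enzyme that primes ubiquitin chains on the substrates of the anaphase-promoting complex. It stood at 40.6 CPM in normal 18, 13.2 in normal 28 and 12.3 in normal 30. In hyperplasia it stood at 200.3 (21), 172 (44), 35.97 (22), 132 (33) and 264 CPM (46). The lowest, median and highest values were 120, 220 and 457 CPM in adenoma, 31.6, 116 and 217 in carcinoma, and 94.0, 142 and 451 in metastasis. Of the 29 lesion libraries, 27 lay above all 3 normal libraries, and only hyperplasia 22 and carcinoma 39 lay below normal 18. Adenoma was the highest stage by mean (244 ± 121 CPM, SD, n = 8) and carcinoma the lowest lesion stage (113 ± 56.1, n = 9), with ranges that overlapped.

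Averaged over the 4 lesion stages with equal weight, Ube2c rose over normal gland with a log2 fold change of 2.93 (SE 0.66, edgeR adjusted p = 0.00907, regions of shared animals). The libraries behind this had 174 ± 108 CPM (n = 29) and 22.0 ± 16.1 CPM (n = 3). Ube2c was 1 of 15 genes called higher in this comparison, 0.0754% of 19907 tested, while 862 were called lower, so that 4.41% were called in either direction. DESeq2's Wald test called 4 members among 157 genes (0.897% of those it gave an adjusted p), 103 of them higher and 54 lower. In the test for any difference among the 5 stages, Ube2c again passed (edgeR adjusted p = 0.0274), among 712 genes (3.58%). Both calls ended when normal 28 was left out, with edgeR adjusted p of 0.0575 and 0.0531, and the second also without normal 30 (0.0504). They also ended with limma voom (0.0723 and 0.263), and the first ended when detected genes per library entered the fit as a covariate (0.0639). The log2 difference of the first was 2.88 without the 3 libraries of few detected genes (edgeR adjusted p = 0.0104).

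**Figure D1:**
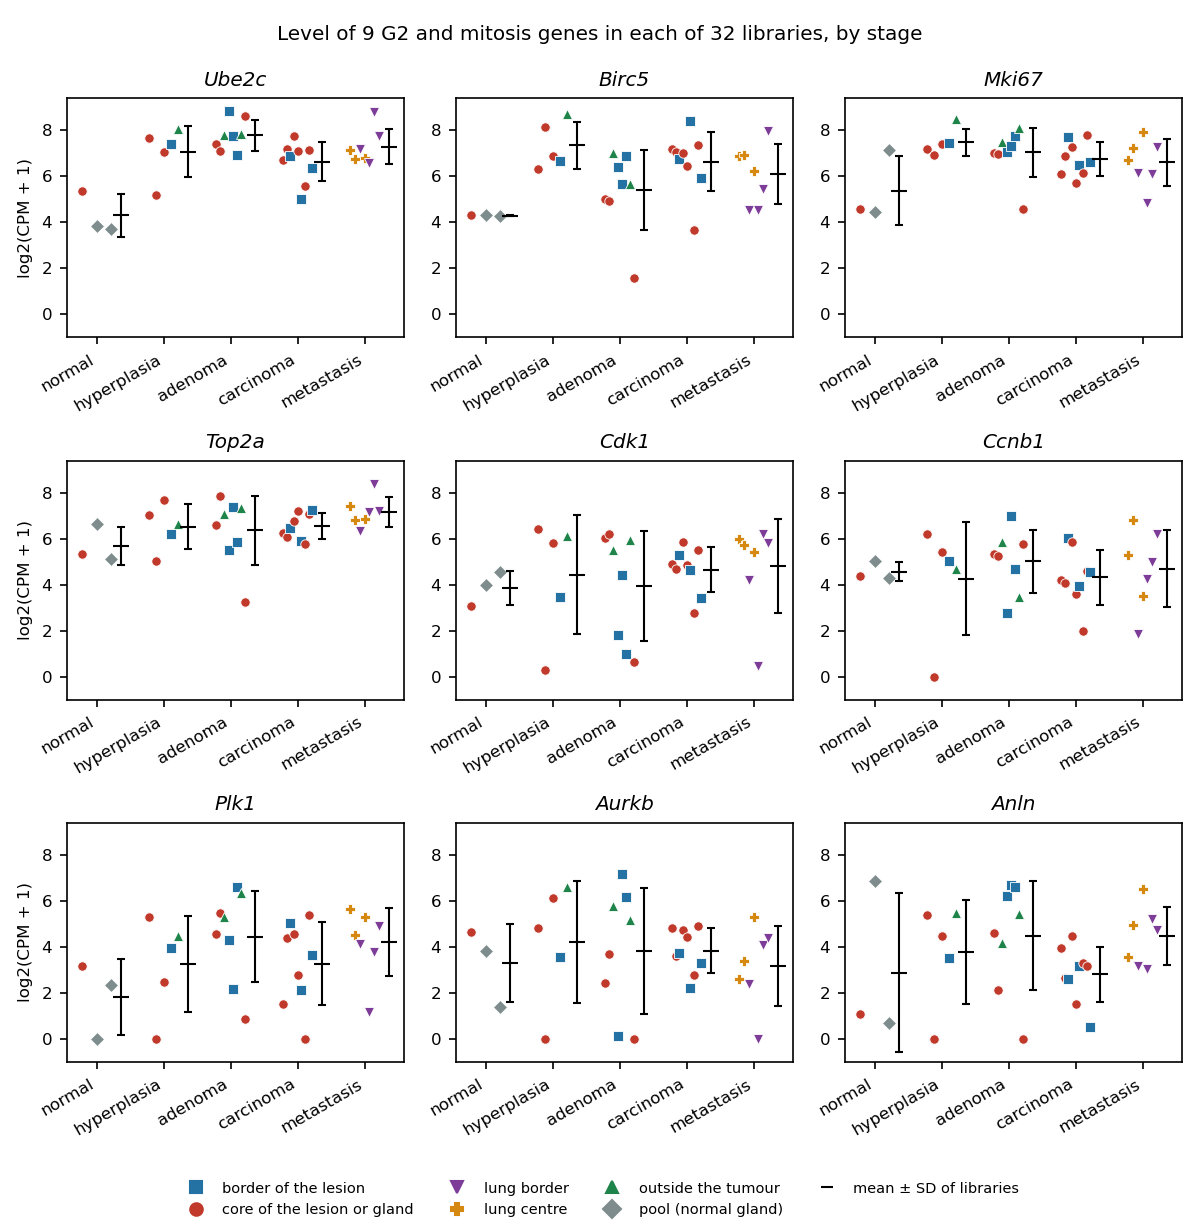
Level of 9 members on the log2(CPM + 1) scale in each of the 32 libraries, by stage; symbols give the position of the region and black bars the mean ± SD of the libraries of a stage. In the Ube2c panel 27 of 29 lesion libraries sit above the 3 normal ones, whereas in the Anln panel normal 28 is the highest of all libraries.

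The other members of the group that works with the anaphase-promoting complex had wider ranges. Cdc20, the activator of the complex, was at 26.1, 53.3 and 1.85 CPM in normal 18, 28 and 30. It was at 58.9, 56.5, 0, 86.5 and 32.6 CPM in hyperplasia 21, 44, 22, 33 and 46. Its lowest, median and highest values were 0, 52.3 and 97.0 CPM in adenoma, 4.90, 33.1 and 82.9 in carcinoma and 11.1, 41.5 and 72.8 in metastasis. Normal 28 thus lay above the medians of adenoma, carcinoma and metastasis for Cdc20, and the groups overlapped. The fitted lesion mean of Cdc20 over normal gland was 0.64 on the log2 scale (SE 1.03, edgeR adjusted p = 0.861).

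Normal gland had the lowest mean of the 5 stages for 31 of the 46 members (67.4%), against 30.8% of all tested genes. In the average of lesion stages, 38 members were higher and 8 lower than normal gland, with a median log2 difference of 1.15 over the members and 0.02 over all genes tested. The 8 lower values belonged to Bub1, Anln, Ect2, Cenpf, Cenpe, Kif23, Kif2c and Nuf2, and none of them passed the test. The split was also 38 to 8 without the 3 libraries of few detected genes (median 1.08). With DESeq2 size factors the median of all genes moved to -0.37, and 33 members were higher and 13 lower, with a median of 0.68. After Ube2c, the smallest adjusted p values were those of Birc5 (log2 2.57, SE 0.85, edgeR adjusted p = 0.0744), Psrc1 (3.33, SE 1.12, 0.0792) and Tubb4b (1.46, SE 0.52, 0.107).

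Markers of cell types were summed for the same contrast. In each list the ranges of normal gland and lesions overlapped, but the means differed. Mean sums of fibroblast, adipocyte, macrophage, lymphocyte and basal markers were higher in normal gland than in every lesion stage. The luminal mean was lower there than in every lesion stage. Fibroblast means were 2590 CPM in normal gland and 278 (metastasis) to 698 (carcinoma) in lesion stages. Luminal means were 1410 CPM and 2410 (metastasis) to 2830 (carcinoma). The summed level of 10 fibroblast markers was 1190 to 4390 CPM in normal gland and 40.5 to 3300 CPM in the lesion stages. The 8 luminal markers summed to 1090 to 1790 CPM in normal gland and 1390 to 4450 CPM in lesions, and 8 lymphocyte markers to 26.3 to 908 against 0 to 714 CPM. The 9 macrophage markers summed to 421 to 2990 CPM in normal gland and 69.1 to 959 in lesions, and 8 adipocyte markers to 112 to 909 and 0 to 379 CPM. Basal markers (9) summed to 165 to 267 CPM in normal gland and 2.57 to 399 in lesions. Endothelial markers (8) summed to 60.9 to 120 and 0.856 to 258 CPM, with a mean of 122 in metastasis and 81.1 in normal gland. Every marker of these lists had a count in at least 1 normal library. In lesions, the markers at 0 throughout a stage were the fibroblast genes Dpt in hyperplasia and Fbln1 in adenoma, the lymphocyte genes Cd2, Cd79b and Ms4a1 in hyperplasia, Cd79a and Cd79b in adenoma and Nkg7 in metastasis, and the adipocyte genes Cfd in adenoma and Adipoq, Plin1 and Lep in metastasis. Their part in the result was not tested.

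In hyperplasia against normal gland, 37 members were higher and 9 lower. The median log2 difference was 1.20 over the members and 0 over all genes. None of the 46 was called, and none of the 19907 genes tested was (0%), with an adjusted p of 0.282 as the smallest among members. At an unadjusted p under 0.05 there were 14 members (30.4%) and 12.4% of all genes, and DESeq2's Wald test called 3 members, Ube2c, Birc5 and Tpx2, among 422 genes (2.41%), 125 of them higher and 297 lower. With DESeq2 size factors, which put the median of all genes at -0.35, 30 members were higher and 16 lower and the median was 0.79. Without the 3 libraries of few detected genes the split was 37 to 9 and the median 1.28.

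Birc5 encodes survivin, a subunit of the chromosomal passenger complex that guides Aurora B to centromeres. Its level was 18.8 CPM in normal 18, 18.8 in normal 28 and 18.3 in normal 30. In hyperplasia it was 78.9 (21), 100.5 (44), 284 (22), 119 (33) and 416 CPM (46), with no overlap between the groups. The fitted difference was 3.42 (SE 0.96, edgeR adjusted p = 0.282). In later stages the lowest, median and highest values were 1.998, 50.4 and 128 CPM in adenoma, 11.8, 128 and 339 in carcinoma and 22.0, 74.3 and 255 in metastasis. Adenoma 51 and carcinoma 53 were the only lesion libraries below normal gland. Besides Birc5, the groups did not overlap for the tubulin gene Tubb4b (230 ± 130 CPM in hyperplasia, 65.1 ± 24.8 in normal gland) and for Cdc25c, the phosphatase that activates CDK1 (30.1 ± 13.7 and 3.36 ± 3.53). These 3 members were 6.52% of the 46, and the groups failed to overlap in that direction for 1.35% of all genes tested, both with TMM scaling. With DESeq2 size factors Tubb4b in normal 28 lay above hyperplasia 46, and Cdc25c in normal 30 above hyperplasia 22. Of the 3, only Birc5 then stayed without overlap. Tubb4b and Cdc25c were both higher in hyperplasia, and neither passed the test (edgeR adjusted p = 0.282 and 0.442).

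Tpx2, which activates Aurora A on the spindle, was at 4.74 CPM in normal 18, 0.54 in normal 28 and 0.62 in normal 30. It was at 57.8, 39.2, 0, 21.4 and 66.8 CPM in hyperplasia 21, 44, 22, 33 and 46, where only hyperplasia 22 lay within the normal range or below it. The lowest, median and highest values in adenoma were 2.58, 23.6 and 138 CPM, in carcinoma 4.46, 16.9 and 45.0, and in metastasis 2.701, 13.6 and 38.1. The lesion mean was 3.78 above normal gland on the log2 scale (SE 1.38, edgeR adjusted p = 0.12).

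**Figure D2:**
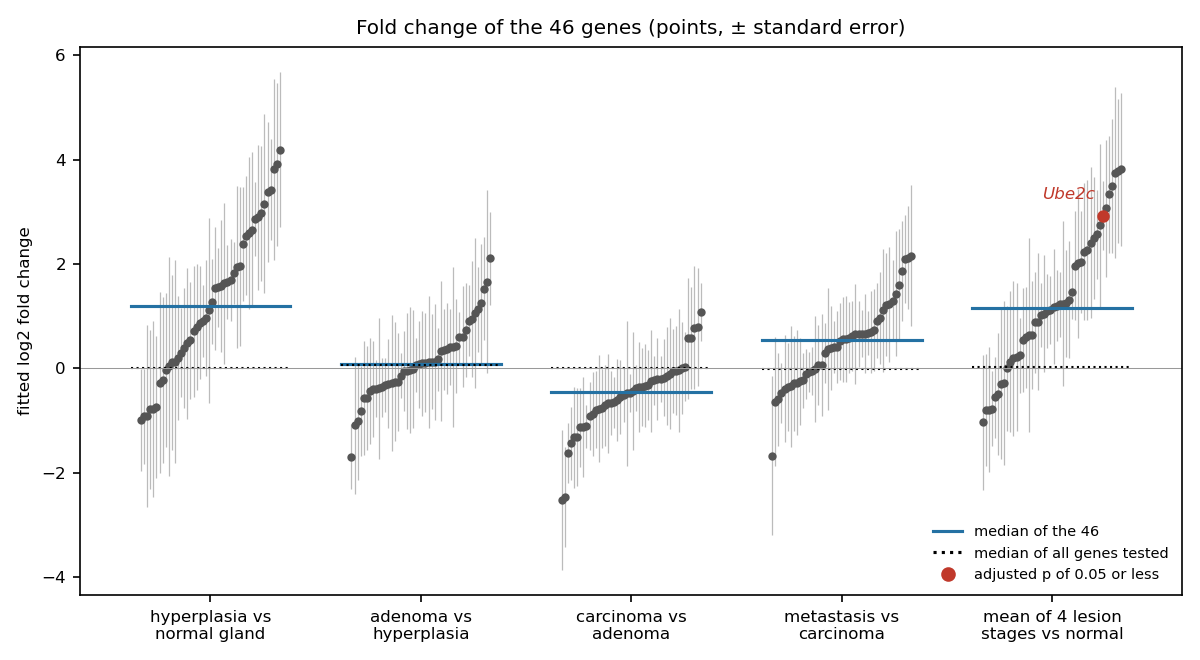
Fitted log2 fold changes of the 46 genes with their standard errors in 5 comparisons, sorted by size within each; blue lines mark the median of the 46 and dotted lines the median of all genes tested. The medians are 1.20, 0.09, -0.45, 0.54 and 1.15 from left to right, and Ube2c in the comparison at the right is the only gene past an adjusted p of 0.05.

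Adenoma was close to hyperplasia. Of the 46 members, 25 were higher and 21 lower, with a median log2 difference of 0.09 against 0.06 over all genes, none called and 0% called over all genes (edgeR). Unadjusted p fell under 0.05 for 2 members (4.35%) and for 14.8% of all genes, and DESeq2 called 0 members and 2.93% of genes. The median over members turned below 0 when adenoma 34 (-0.07), hyperplasia 22 (-0.16) or hyperplasia 44 (-0.01) was left out, and reached 0.32 without hyperplasia 46. With the 3 libraries of few detected genes left out, 23 members lay on each side. The smallest adjusted p, 0.205, was that of Birc5, at 61.8 ± 44.3 CPM in adenoma (n = 8) and 200 ± 146 in hyperplasia (n = 5), a fitted difference of -1.69 (SE 0.63). Nusap1, a protein that bundles spindle microtubules, was at 50.5 ± 38.5 CPM in adenoma and 11.7 ± 13.3 in hyperplasia, a fitted difference of 2.11 (SE 0.89, edgeR adjusted p = 0.25). Ccnb2, the second B cyclin, was at 53.9 ± 40.8 and 18.7 ± 12.2 CPM (1.53, SE 0.98, 0.495). In all 3 genes the 2 stages overlapped.

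Carcinoma against adenoma was the step between neighbouring stages with the members' median below 0, with 7 members higher and 39 lower and a median log2 difference of -0.45 against 0.02 over all genes. None was called, nor was any of the genes tested (edgeR, 0%). Unadjusted p fell under 0.05 for 4 members (8.70%) and for 12.6% of all genes, and DESeq2 called 0 members and 1.34% of genes. Between 5 and 11 members were higher when any single library was left out, and limma voom gave 15 higher and 31 lower. The split was 5 to 41 (median -0.58) without the 3 libraries of few detected genes. G2e3, a ubiquitin ligase named for its G2 expression, was at 25.2 ± 9.78 CPM in carcinoma (n = 9) and 77.7 ± 71.9 in adenoma (n = 8), a fitted difference of -1.62 (SE 0.57, edgeR adjusted p = 0.159). Ube2c differed by -1.10 (SE 0.41, adjusted p = 0.183).

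Anln encodes anillin, the scaffold of the cytokinetic ring, and had the lowest carcinoma median of the 13 genes followed by library. It was at 1.12, 116 and 0.62 CPM in normal 18, 28 and 30. In hyperplasia 21, 44, 22, 33 and 46 it was at 41.3, 10.5, 0, 21.2 and 44.05 CPM. The lowest, median and highest values were 0, 33.2 and 103 CPM in adenoma, 0.42, 8.01 and 21.2 in carcinoma and 7.30, 25.6 and 90.2 in metastasis. The normal gland thus held both the highest library of all and 1 of the lowest, and the ranges of adenoma and carcinoma overlapped. Carcinoma differed from adenoma by -2.47 (SE 0.96, edgeR adjusted p = 0.209).

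In metastasis against carcinoma, 31 members were higher and 15 lower, with a median log2 difference of 0.54 against -0.01 over all genes. No member was called, against 3 of 19907 genes (0.0151%, edgeR). Unadjusted p fell under 0.05 for 2 members (4.35%) and 10.9% of all genes, and DESeq2 called 0 members and 0.886% of genes. The median was 0.25 without metastasis 57, 0.34 without metastasis 27 and 0.55, again with 31 members higher, without the 3 libraries of few detected genes. The 2 members were Tacc3, a spindle protein that works with the clathrin and ch-TOG complex (66.5 ± 76.7 CPM in metastasis, n = 7, and 15.5 ± 7.05 in carcinoma, n = 9), and Bub1b, the checkpoint kinase-like protein BUBR1 (55.5 ± 85.7 and 12.7 ± 9.41). Their fitted differences were 2.10 (SE 0.84, edgeR adjusted p = 0.305) and 2.12 (SE 0.99, adjusted p = 0.411). Over the other fits run these went from 1.13 to 2.34 for Tacc3 and from 0.545 to 2.48 for Bub1b. Anln, next by p among members that reached 5 CPM, was at 29.8 ± 29.0 CPM in metastasis and 8.14 ± 6.42 in carcinoma. Its difference went from 1.27 to 2.22 over those fits. The highest values were 227 CPM of Tacc3 in metastasis 42, a library of few detected genes, and 245 CPM of Bub1b in metastasis 57. Lung epithelium markers moved with this step, their 8 genes summing to 403 to 4590 CPM in metastasis and 1.53 to 15.7 CPM in carcinoma, and their part in the result was not tested.

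Carcinoma set directly against normal gland gave 35 members higher and 11 lower (median 0.96, against 0.10 over all genes), with none of the 46 and 1 of 19907 genes called (0.00502%, edgeR). With DESeq2 size factors the median of all genes was -0.31, and 29 members were higher and 17 lower (median 0.43). Unadjusted p fell under 0.05 for 7 members (15.2%) and 8.17% of all genes, and DESeq2 called Ube2c alone among members, with 154 genes in all (0.837%), 107 of them higher. The groups did not overlap for 3 members (6.52%), all higher in carcinoma, against 0.894% of all genes. Psrc1, which promotes microtubule growth, was at 28.2 ± 20.3 against 2.76 ± 4.18 CPM (3.35, SE 1.15, edgeR adjusted p = 0.299). Birc5, also among the smallest p, overlapped, at 130 ± 90.8 against 18.6 ± 0.321 CPM. Its difference went from 2.3 to 2.9 over the other fits run. Cdca3, a trigger of mitotic entry, was at 31.3 ± 18.2 against 1.94 ± 2.69 CPM and Tacc3 at 15.5 ± 7.05 against 3.08 ± 2.68 (edgeR adjusted p = 0.419 and 0.635). Psrc1, Cdca3 and Tacc3 were the 3 without overlap, with TMM scaling. With DESeq2 size factors Psrc1 and Cdca3 overlapped and Tacc3 did not.

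The proliferation markers Mki67 and Top2a did not pass the test against normal gland. Mki67, whose product Ki-67 coats mitotic chromosomes, stood at 22.8, 20.98 and 140 CPM in normal 18, 28 and 30. In hyperplasia 21, 44, 22, 33 and 46 it stood at 144, 175, 123, 169 and 357 CPM. Its lowest, median and highest values were 22.8, 146 and 278 CPM in adenoma, 51.3, 97.5 and 221 in carcinoma and 28.1, 103 and 245 in metastasis. Normal 30 was therefore above the medians of carcinoma and metastasis, while the other 2 normal libraries lay below or level with every lesion library. The lesion mean was 1.23 above normal gland (SE 0.62, edgeR adjusted p = 0.344), and Mki67 was called only without normal 30 among the fits run.

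Top2a, the topoisomerase that untangles sister chromatids, was at 38.9, 99.8 and 33.6 CPM in normal 18, 28 and 30 and at 130.5, 73.6, 32.1, 204.6 and 98.96 CPM in hyperplasia 21, 44, 22, 33 and 46. Its lowest, median and highest values were 8.56, 115 and 233 CPM in adenoma, 54.1, 88.8 and 150 in carcinoma and 79.4, 141 and 331 in metastasis. Metastasis was the highest stage by mean (156 ± 82.4 CPM, n = 7), and it overlapped with all others. Smc4, a condensin core subunit, was the other member with more than 100 CPM on average in this group of chromosome structure genes (145 CPM over all libraries).

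Cdk1, the kinase that drives mitotic entry, was at 7.33, 14.8 and 22.4 CPM in normal 18, 28 and 30. It was at 86.2, 10.1, 0.23, 55.9 and 69.0 CPM in hyperplasia 21, 44, 22, 33 and 46. The lowest, median and highest values were 0.57, 32.7 and 72.9 CPM in adenoma, 5.80, 27.8 and 57.3 in carcinoma and 0.36, 51.4 and 72.1 in metastasis. Each lesion stage held libraries below the lowest normal one as well as libraries above the highest. Ccnb1, the main mitotic cyclin, behaved in the same range, at 19.8, 31.7 and 18.7 CPM in normal 18, 28 and 30 and at 71.9, 31.5, 0, 42.1 and 24.7 CPM in hyperplasia 21, 44, 22, 33 and 46. Its lowest, median and highest values were 5.83, 38.4 and 127 CPM in adenoma, 3.02, 17.3 and 64.8 in carcinoma and 2.61, 31.2 and 112 in metastasis. Their lesion means were 1.32 (SE 1.12) and 0.60 (SE 0.97) above normal gland on the log2 scale, with edgeR adjusted p of 0.655 and 0.862.

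The mitotic kinases had lower levels and many zeros. Plk1, the polo-like kinase needed for spindle assembly, was at 8.11, 0 and 4.10 CPM in normal 18, 28 and 30 and at 39.1, 14.7, 0, 4.61 and 21.6 CPM in hyperplasia 21, 44, 22, 33 and 46. Its lowest, median and highest values were 0.86, 30.4 and 97.1 CPM in adenoma, 0, 11.7 and 41.2 in carcinoma and 1.28, 22.3 and 50.2 in metastasis. Adenoma had the highest mean (38.1 ± 34.9 CPM), with overlap between all stages. Aurkb, the kinase of the chromosomal passenger complex, was at 24.3, 13.2 and 1.64 CPM in normal 18, 28 and 30 and at 27.2, 10.7, 0, 68.7 and 95.4 CPM in hyperplasia 21, 44, 22, 33 and 46. It ranged from 0 to 145 CPM in adenoma (median 23.8), from 3.60 to 29.3 in carcinoma (median 12.2) and from 0 to 38.9 in metastasis (median 9.58). The lesion mean was 2.41 above normal gland for Plk1 (SE 1.44, edgeR adjusted p = 0.454) and 0.90 for Aurkb (SE 1.31, adjusted p = 0.842).

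Cenpf and Kif11 were not lowest in normal gland. Cenpf, a large kinetochore protein, was at 28.5, 132 and 112 CPM in normal 18, 28 and 30 and at 38.7, 13.4, 4.10, 65.3 and 119.5 CPM in hyperplasia 21, 44, 22, 33 and 46. Its lowest, median and highest values were 5.42, 60.1 and 147 CPM in adenoma, 7.75, 35.9 and 91.5 in carcinoma and 14.4, 24.5 and 244 in metastasis. Both pools of normal gland were above the median of every lesion stage. Kif11, the motor that pushes spindle poles apart, was at 14.7, 16.7 and 16.8 CPM in normal 18, 28 and 30 and at 32.01, 5.74, 0, 13.2 and 61.0 CPM in hyperplasia 21, 44, 22, 33 and 46. It ranged from 0.28 to 58.6 CPM in adenoma (median 7.18), from 1.001 to 33.4 in carcinoma (median 11.5) and from 0 to 26.9 in metastasis (median 14.8), around the normal level. The lesion means differed from normal gland by -0.77 for Cenpf (SE 0.71, edgeR adjusted p = 0.695) and by 0.00 for Kif11 (SE 1.20, adjusted p = 1.0).

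Summed by role, the contrast with normal gland was uneven in the same way. The 10 spindle and microtubule genes summed to 107 to 144 CPM in normal gland and to 159 to 779 CPM in lesions, without overlap. The 3 partners of the anaphase-promoting complex summed to 14.2 to 71.7 CPM in normal gland and 90.3 to 562 CPM in lesions, also without overlap. Hyperplasia 22, of few detected genes, reached these sums largely through Tubb4b at 459 CPM and Cdca3 at 118. Ube2c was at 35.97 CPM there and Cdc20 at 0. These sums by role are on TMM scaling. With DESeq2 size factors normal 28 lay above carcinoma 53 in the spindle sum and above carcinoma 55 in the sum of the partners. Both sums then overlapped between normal gland and lesions. The 4 motors had means of 59.6 ± 14.1, 66.5 ± 71.5, 66.8 ± 37.7, 68.7 ± 38.9 and 58.3 ± 42.2 CPM in the order of the stages from normal gland to metastasis. The 2 cytokinesis genes had 61.3 ± 92.0, 36.2 ± 28.5, 57.6 ± 45.5, 15.5 ± 9.18 and 52.2 ± 57.1 CPM in that order. Over all 46 genes the sum was 959 ± 267 CPM in normal gland (726 to 1250), 2372 ± 981 in hyperplasia (1305 to 3972), 2385 ± 530 in adenoma (1532 to 3217), 1685 ± 429 in carcinoma (881 to 2333) and 2185 ± 940 in metastasis (1076 to 3941). Carcinoma 53, at 881 CPM, and metastasis 40, at 1076, were the lesion libraries within the normal range. With DESeq2 size factors the normal range was 757 to 1904 CPM and overlapped every lesion stage. The sum relative to that of 47 S phase genes had means of 1.23, 1.91, 1.62, 1.43 and 1.53 from normal gland to metastasis. In that order the ranges were 1.17 to 1.32, 1.24 to 2.63, 1.21 to 2.2, 0.991 to 1.68 and 1.13 to 1.75, with overlap between all stages. The highest ratios were those of hyperplasia 46 (2.63) and hyperplasia 22 (2.62).

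**Figure D3:**
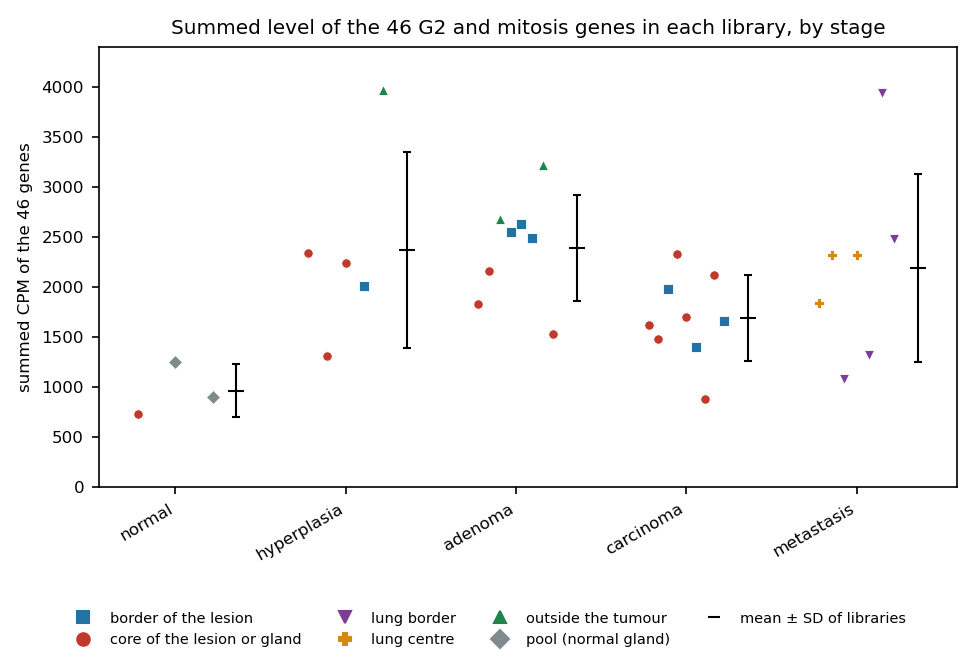
Summed CPM of the 46 genes in each library, by stage, with symbols for the position of the region and black bars for the mean ± SD of the libraries. Normal libraries lie between 726 and 1250 CPM, and the highest libraries are hyperplasia 46 (3972) and metastasis 57 (3941).

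Levels of different genes are compared per kilobase of exon. Over all libraries the median was highest for Tubb4b (98.3 CPM per kb), Cks1b, a CDK-binding adaptor (60.8), and Ube2c (53.1). It was lowest for the centrosomal kinase Nek2 (0.72) and the spindle protein Dlgap5 (1.11). Adenoma had the highest mean level for 19 of the 46 genes, hyperplasia for 12, metastasis for 10, normal gland for 4 and carcinoma for 1. In that order these were 41, 26, 22, 9 and 2% of the members, against 20, 22, 19, 25 and 14% of all tested genes. The shares of hyperplasia and metastasis were thus close to those over all genes.

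Position within the lesion was compared at 4 sites, again over regions that share animals. In adenoma, core against border, 10 members were higher and 36 lower in the core (median log2 difference -0.48, against 0 over all genes). None of the 46 and none of 22676 genes was called (edgeR, 0%), with 3 members (6.52%) and 9.45% of all genes at an unadjusted p under 0.05. DESeq2 called 0 members and 5.45% of genes. The sum of the 46 was 1839 ± 311 CPM in the core (1532 to 2154, n = 3), 2556 ± 66.6 at the border (2492 to 2625, n = 3) and 2680 and 3217 CPM outside the tumour, so that core and border did not overlap. Adenoma 51, a core region, had few detected genes, and without it and the other 2 such libraries 16 members were higher and 30 lower (median -0.29). In limma voom the split was 19 to 27. With single core libraries left out the median was -1.01 (without adenoma 24), -1.06 (without adenoma 25) and -0.30 (without adenoma 51).

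The groups did not overlap for 6 members in adenoma core against border, 5 lower (10.9%) and 1 higher (2.17%) in the core, against 2.35 and 3.49% of all genes. Birc5 was at 31.6, 30.0 and 1.998 CPM in the core (24, 25 and 51) and 50.6, 117 and 83.9 at the border (47, 48 and 36), a fitted difference of -1.98 (SE 0.92, edgeR adjusted p = 0.514). Anln was at 23.6, 3.42 and 0 CPM in the same core regions and 103, 97.4 and 72.6 at the border (-3.32, SE 1.59, adjusted p = 0.514). Mki67 was at 130, 127 and 22.8 CPM in the core and 159, 215 and 134 at the border (-0.86, SE 0.76, adjusted p = 0.709). Ccnb2 and Nek2 were the remaining lower genes, and Tubb4b, at 205 ± 62.5 in the core and 111 ± 61.1 CPM at the border, was the higher one. With DESeq2 size factors in place of TMM, Mki67 and Tubb4b overlapped. Aurkb was at 4.44, 12.1 and 0 CPM in the core and 145, 71.2 and 0.11 at the border, where adenoma 36 brought the groups to overlap (-3.68, SE 1.73, adjusted p = 0.514).

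In carcinoma, core and border overlapped in the summed level. Between core and border 26 members were higher and 20 lower (median 0.13, against 0.15 over all genes), none was called and no gene of 22676 was (edgeR, 0%), and 0 members had an unadjusted p under 0.05 or were called by DESeq2, which called 2.09% of genes. Limma voom turned the median to -0.11, and leaving out carcinoma 54 turned it to -0.05. Without carcinoma 39 it was 0.00, with 23 members on each side, and without carcinoma 08 it was 0.28. The sum of the members was 1687 ± 510 CPM in the core (n = 6) and 1679 ± 291 at the border (n = 3). Ube2c, with the smallest p, was at 132 ± 55.5 in the core and 76.6 ± 42.6 CPM at the border (0.78, SE 0.64, edgeR adjusted p = 0.972). Nusap1 (-1.13, SE 1.04) and Bub1 (1.92, SE 2.01) followed, both with an adjusted p of 1.0. The test of the difference itself, core against border in carcinoma minus that in adenoma, gave 35 members higher and 11 lower (median 0.76, against 0.21 over all genes), with no member and no gene of 22676 called (edgeR, 0%) and 2 members (4.35%) against 8.77% of genes at an unadjusted p under 0.05. DESeq2 called 0 members and 4.1% of genes here. The smallest p values were those of Aurkb (4.97, SE 2.24, edgeR adjusted p = 0.531), Anln (4.47, SE 2.08, 0.538) and the centromeric histone gene Cenpa (2.46, SE 1.69, 0.762). Without the 3 libraries of few detected genes the median was 0.35, against 0.27 over all genes, and it was 0.37 without adenoma 51 alone and 0.50 without carcinoma 54.

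**Figure D4:**
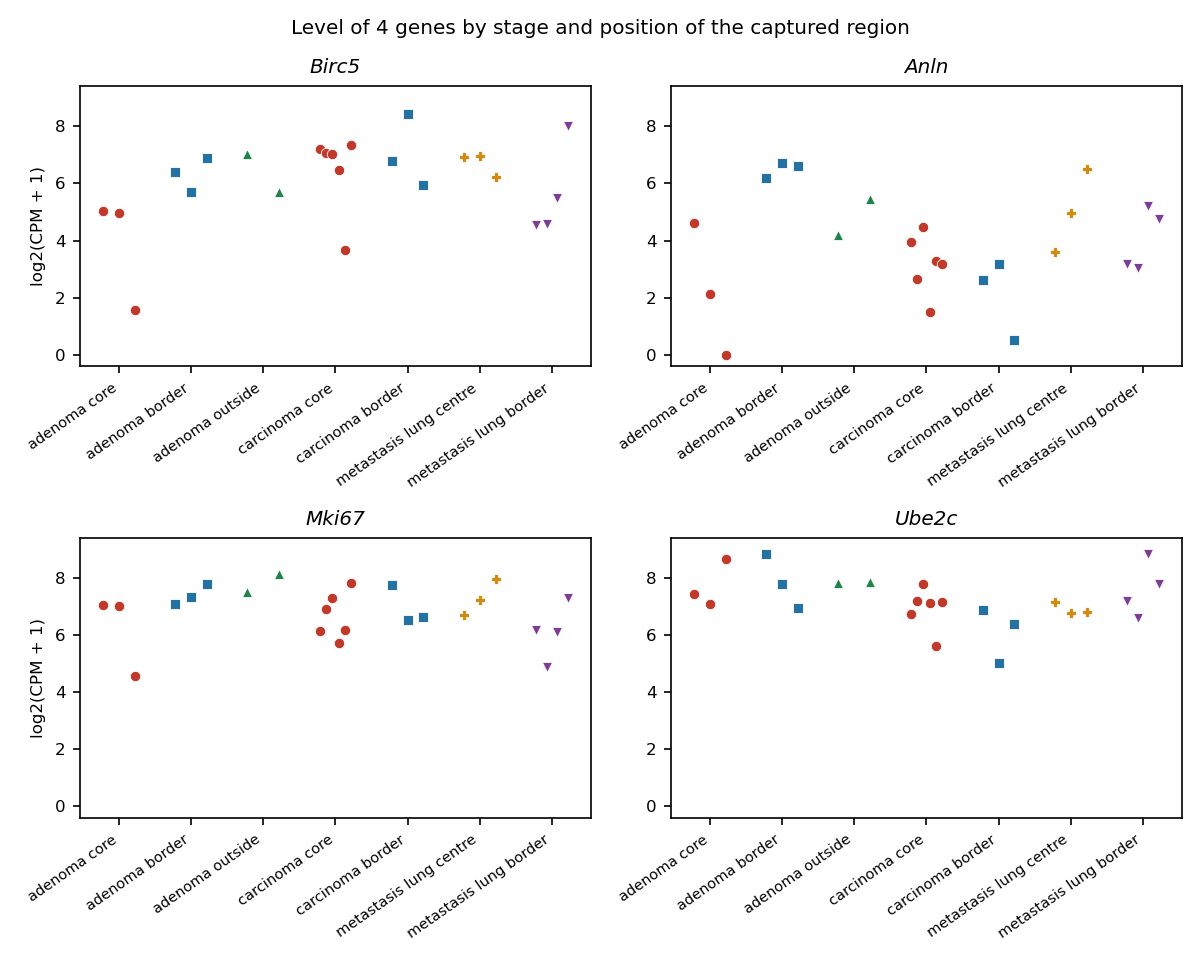
Level of Birc5, Anln, Mki67 and Ube2c on the log2(CPM + 1) scale by stage and position, each point a library. For Birc5, Anln and Mki67 the 3 adenoma core libraries lie below the 3 border libraries, and in carcinoma the same positions overlap.

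In hyperplasia and adenoma, the 3 regions outside the tumour were set against the 6 core regions, each stage with equal weight. Of the members, 35 were higher and 11 lower outside (median 0.65), while the median of all genes was -0.69. With DESeq2 size factors these became 31 and 15, 0.41 and -0.89. Without the 3 libraries of few detected genes, 2 of them core regions here, 30 members were higher and 16 lower (median 0.39, against -0.55 over all genes). The median was 0.40 without hyperplasia 22 and 1.08 without hyperplasia 21. None of the 46 and none of 22676 genes was called (edgeR, 0%), with 4 members (8.70%) and 5.39% of genes at an unadjusted p under 0.05, and DESeq2 called 2 members (Hmmr and Cdca3) and 10.2% of genes, 109 of them higher and 1718 lower. Cdca3, fitted lower outside, went opposite ways in the 2 stages. In hyperplasia it was at 0.08 CPM outside (46) against 14.9, 118 and 12.6 in the core (21, 22 and 33), and in adenoma at 67.3 and 74.3 outside (34 and 50) against 13.7, 36.7 and 0 in the core (24, 25 and 51). Hmmr, a spindle and hyaluronan-binding protein, was fitted higher outside. It was at 256.3 CPM in hyperplasia 46 and at 54.3 and 87.4 in adenoma 34 and 50, against 0 to 60.3 CPM in the core (3.10, SE 0.97, edgeR adjusted p = 0.768). Birc5 was fitted higher outside too, by 1.31 to 1.99 over the other fits run. It was at 416.1, 128.5 and 50.34 CPM in those 3 regions. In the core it was at 78.86, 284.4 and 119 CPM in hyperplasia and 31.62, 29.99 and 1.998 in adenoma. Mki67 was the 1 member without overlap (2.17%, against 1.05% of all genes), at 357, 177 and 278 CPM outside against 119 ± 50.1 in the core (1.30, SE 0.65, adjusted p = 0.768). With DESeq2 size factors Mki67 overlapped too, as core region hyperplasia 33 then lay above adenoma 34. Hyperplasia 46 was the only hyperplasia region outside the tumour, and it held the highest value of its stage for 19 of the 46 genes.

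At the lung, border against centre, 21 members were higher and 25 lower (median -0.13, against 0.30 over all genes). None of the 46 and none of 22676 genes was called (edgeR, 0%). No member had an unadjusted p under 0.05, and DESeq2 called 0 members and 4.38% of genes. The median turned above 0 when metastasis 27 (0.24), 40 (0.07) or 56 (0.05) was left out, and was -0.53 without metastasis 57. Without metastasis 42, of few detected genes, and the other 2 such libraries it stayed at -0.13, with 21 higher. Gtse1, a microtubule-associated protein of G2, was the 1 member without overlap (2.17%, against 1.62% of all genes), at 17.4, 51.3, 54.3 and 20.6 CPM at the border (40, 56, 57 and 58) and 3.18, 3.51 and 9.58 in the centre (2.72, SE 1.78, edgeR adjusted p = 0.614). Mki67 ran the other way with overlap, at 80.6 ± 54.3 against 166 ± 72.6 CPM (-1.04, SE 0.70, adjusted p = 0.626), as did the passenger complex subunit Cdca8, at 31.2 ± 26.3 against 91.3 ± 45.2 (-1.55, SE 1.07, 0.638).

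Spread between libraries of the same stage was then measured. The pooled SD within stages, on the log2(CPM + 1) scale, had a median of 1.62 over the members and 1.38 over all tested genes, with 31 of 46 above the latter. Against 12479 genes with a mean of at least 5 CPM, whose median was 1.55, 29 of the 46 were above. Without the 3 libraries of few detected genes the members' median was 1.30, against 1.27 over all genes, with 25 above. Aurkb (2.03), Cdc25c (1.99) and Anln (1.97) were the most variable, and Tubb4b (0.693), Ube2c (0.845) and Hjurp (0.879), the chaperone that deposits Cenpa, the least. The members' median SD was largest in hyperplasia (1.87) and adenoma (1.70) and smallest in carcinoma (1.12), with 1.41 in normal gland and 1.40 in metastasis. That order did not hold without the 3 libraries of few detected genes, where the medians were 1.45 in metastasis, 1.41 in normal gland, 1.34 in adenoma, 1.12 in carcinoma and 1.04 in hyperplasia.

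Members deviated together within libraries. After centring on the stage, Spearman's rho between pairs of members had a median of 0.21 over 1035 pairs, and it was above 0 in 875. For tested genes of at least 5 CPM on average the median was 0.02. Without the 3 libraries of few detected genes the values were 0.14 and 0.01. All points of these correlations share libraries and their depth. The members closest to the mean of the others were Cks2, a CDK-binding subunit (rho 0.74), Cdk1 (0.72) and Bub1b (0.67), and Cks2 stayed first without those libraries (0.79). Ube2c had 0.39, Birc5 0.24 and Tubb4b -0.01 over all libraries, and 0.45, 0.42 and 0.31 without the 3.

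Individual regions stood out for many genes together. Carcinoma 37 was above the median of its stage for 38 of 46 members (82.6%), against 47.3% of all genes. Carcinoma 53 was below it for 36, with 17.4% of members above it, against 40.3% of all genes. Metastasis 57 held the highest value of its stage for 21 members, among them Cenpf (244 CPM), Bub1b (245) and Ube2c (451). It was above the median for 65.2% of members and 29.8% of all genes. Metastasis 40 was below the median for 33, with 15.2% of members above it, against 44.9% of all genes. In adenoma the 2 regions outside the tumour, 34 and 50, were above the median for 36 and 32 (78.3 and 69.6%), against 45.9 and 43.1% of all genes. Hyperplasia 22 was below it for 39 and adenoma 51 for 37, the 2 libraries with the fewest members detected.

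**Figure D5:**
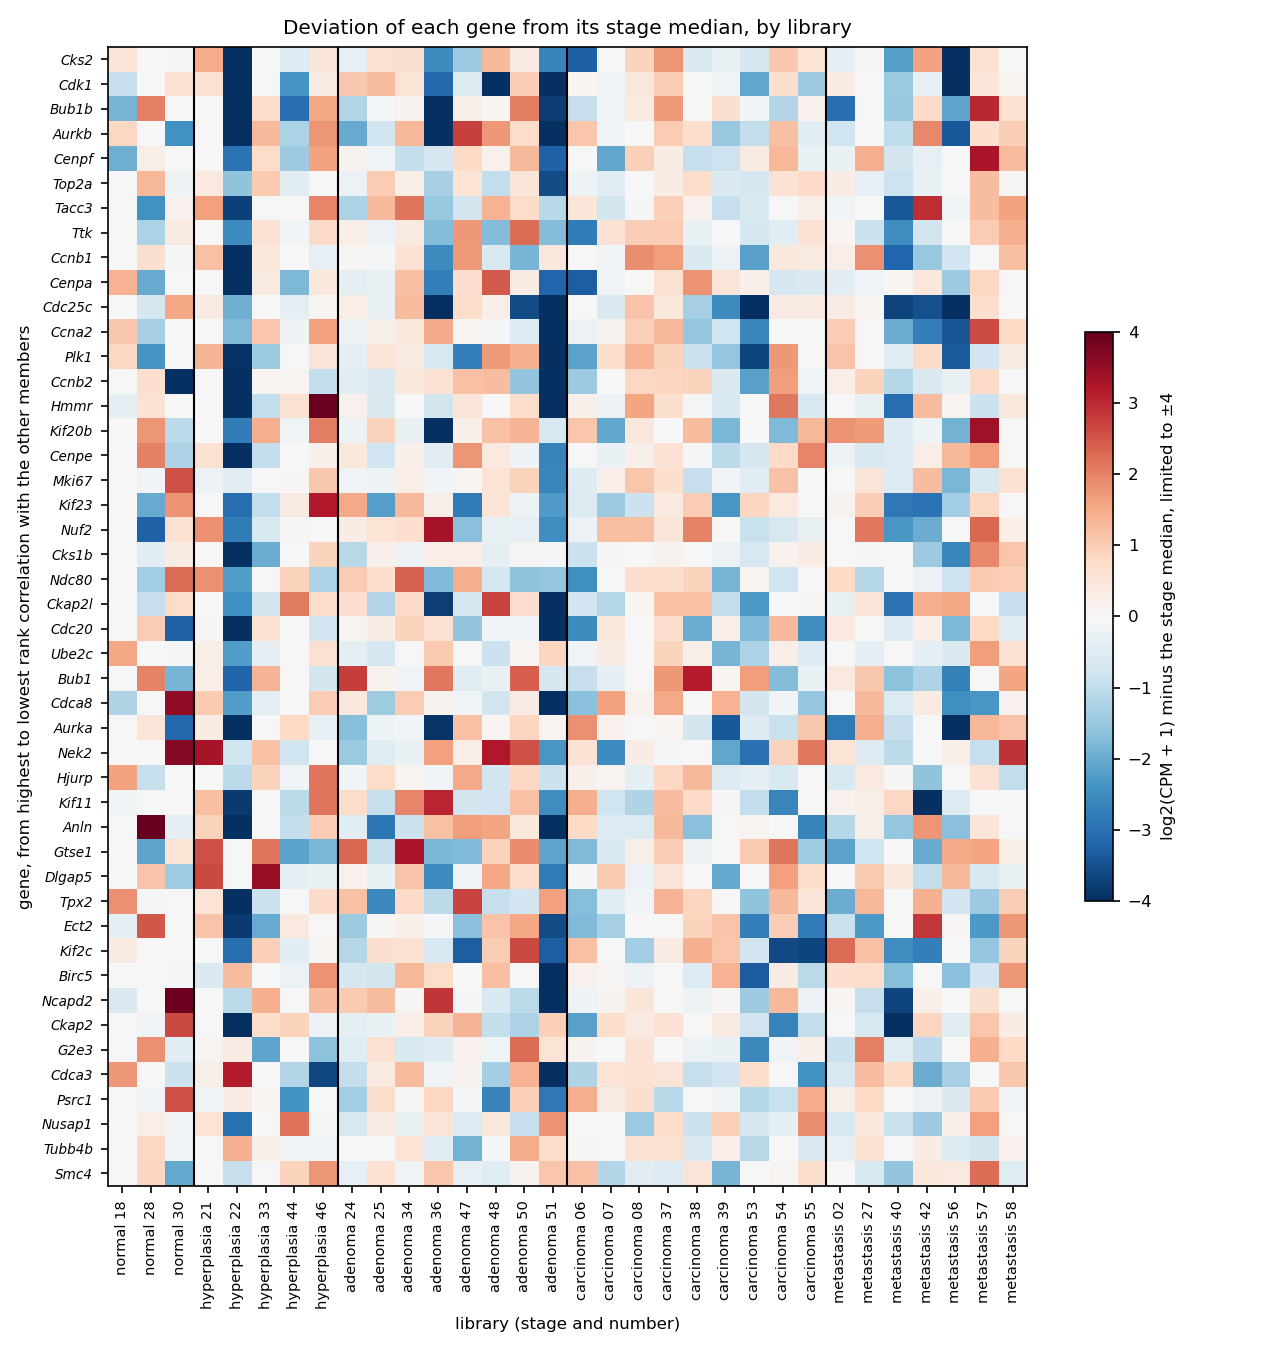
Deviation of each gene from the median of its stage in each library, on the log2(CPM + 1) scale, with genes ordered by their rank correlation with the mean of the other members. Hyperplasia 22 and adenoma 51 form blue columns in which 39 and 37 of the 46 genes lie below the stage median, and carcinoma 37 is a pale red column in which 38 lie above it.

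Genes around the members were taken from lists. Foxm1, a transcription factor of G2 genes, was at 3.04 ± 3.10 CPM in the 3 normal libraries. The 5 hyperplasia libraries had 24.2 ± 31.7 CPM and the 8 adenoma libraries 13.4 ± 9.27. Carcinoma libraries ranged from 8.12 to 41.0 CPM (median 26.3), and the 7 metastases had 42.5 ± 48.9. It did not pass the test in any comparison. Mybl2, which encodes B-MYB, was at 1.62 ± 1.25, 8.35 ± 5.61, 11.1 ± 20.3, 4.73 ± 6.54 and 5.44 ± 5.78 CPM in the 5 stages, in the same order and did not pass either. In the average of lesion stages against normal gland, 41 of 47 S phase genes were higher, 39 of 53 other mitosis genes and 17 of 21 regulators of mitotic transcription and entry, with median log2 differences of 0.84, 0.74 and 0.81 and none called (edgeR). In carcinoma against adenoma, 32 of the 47, 38 of the 53 and 16 of the 21 were lower, again with none called. Over the comparisons fitted, the S phase list gave 1 call, Cenpu, a centromere protein, in the test for any difference among stages (edgeR adjusted p = 0.0391), and the other 2 lists gave none.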

How the data were processed

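RNA of 32 laser-captured regions was sequenced by Smart-seq2 with oligo-dT beads and Nextera XT libraries, from 7 µm sections, per the labels' protocols. The authors deposited raw read counts per gene for each region. The submitters' processing notes name STAR and mm10, and the counting program, its annotation, its use of strand and its treatment of reads that match several genes are among the things not given in the sources used here. The protocol names no molecular identifiers, so the counts can hold PCR copies.

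Gene IDs were paired with symbols from a RefSeq table (24374 of 24454, 80 without a symbol). Counts were tested with edgeR 4.0.16 in R 4.3.3 by the quasi-likelihood F test after filterByExpr and TMM scaling, in 1 fit of 5 stages (19907 genes) and 1 of stage and position (22676 genes), over all 32 libraries. Benjamini-Hochberg adjustment ran over all genes, and an adjusted p of 0.05 or less was called. The common dispersion was 2.64. A mean over the lesion stages weights each stage equally. CPM per kb used the exon length of GENCODE vM21, and spread used log2(CPM + 1). The edgeR test was tested on simulated data. Figures and summaries used Python 3.11.15.

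The members and lists were chosen with earlier results of these data known. Values by library were given for 13 fixed genes. In each comparison every called member was named, or else the 3 members of smallest p whose higher group reached 5 CPM on average. The 3 members of largest and of smallest spread were also named, as were Foxm1, Mybl2 and called list genes. Members whose groups did not overlap, and others named for their rank, were picked after their values were seen. Shares called by DESeq2 are of the genes it gave an adjusted p, which included all 46 members. Alternatives covered scaling, filter, tool (DESeq2 1.42.0 and limma 3.58.1), a depth covariate, the samples in the fit and each library left out.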

Additional observations from a re-analysis of the deposited data

Results flagged for a closer look

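In 13 fixed genes and in the number of members with a count, a library stood far from the others of its stage in 12 of 56 sets of 4 to 10 libraries. Chance gives such a gap in about 1 in 20 sets, and genes of a library are not independent. Hyperplasia 22 was the lowest of its stage for Ccnb1, Cdc20 and Tpx2, each at 0 CPM, and in the number of members with a count, 23 against 44 in the next library. Adenoma 51 was the lowest for Mki67 (22.8 CPM, next 127), Cdc20 (0, next 16.8) and Birc5 (2 CPM, next 30.0), and had 30 members with a count against 44 in the next library. Both had fewer than 11000 genes with a count, as did metastasis 42, which was lowest for Kif11 (0 CPM, next 10.0). Metastasis 56, a lung border region, was lowest for Cdk1 (0.365 CPM, next 17.6) and Plk1 (1.28, next 12.8). Carcinoma 53 had 42 members with a count, against 44 in the next carcinoma library.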

How the results depend on the processing

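Of 301 alternative values of the counts of members called and of their spread, 286 stayed within the limits set, for the spread a jackknife error of 0.196. Many of the counts were 0 in the main fit and stayed at 0, in comparisons where edgeR called few or no genes. That they stayed therefore says little. DESeq2's Wald test called 3 members among 422 genes in hyperplasia against normal gland, 1 among 154 in carcinoma against normal gland, 4 among 157 in the lesion mean and 2 among 1827 in early lesions outside the tumour. In the lesion mean limma voom and the covariate for detected genes called 0, and the fit without the 3 libraries of few detected genes called 3, among 811 genes. In the test over stages voom called 0 and the fit without a filter 2. Leaving out 1 library gave 0 to 3 calls in the lesion mean and 0 to 1 over stages. Without normal 28 none remained, without normal 30 Mki67, Psrc1 and Ube2c were called in the lesion mean and Psrc1 in place of Ube2c over stages, and without adenoma 51 Birc5 joined Ube2c. The adjusted p of Ube2c in the lesion mean ran from 1.67e-05 to 0.0723, and over stages up to 0.263. The members' median spread was 1.1 with a pseudocount of 5 and 1.3 without the 3 libraries, and 1.48 to 1.65 with 1 library left out. Of 597 values of named members, Bub1 in carcinoma core against border was the only one to change sign, at -0.145 with limma voom. The cause of these changes was not tested.

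With 3 normal libraries, a call against normal gland can end when 1 library is left out. In the lesion mean the call of Ube2c ended without normal 28, a pool from several places. It held without normal 18 and without normal 30. Hyperplasia 22 and adenoma 51 leave many members at 0, at totals of 9836443 and 8255402 counts. Adenoma 47 has 2688611 counts and shows 45 members. Scaled by TMM, the effective sizes, which are not read totals, were 8785650, 3503527 and 3936454. With each library drawn down to the smallest total, 2688611 counts, the expected number of members with a count was 20.7, 26.2 and 45.0. In adenoma 51, 57.46% of the counts fell on 1 gene ID without a symbol. The cause of the zeros was not tested.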
